A study of Arabidopsis thaliana with 8 samples.

Results

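Founder-only regions are stretches of the Arabidopsis thaliana genome that were accessible in sorted lateral organ founder cells and were listed in no library of the neighbouring cells. Their members were chosen from the deposited lists of transposase hypersensitive sites (THSs), the places where the transposase of ATAC-seq cuts open chromatin. Joining the THSs of the 6 sorted libraries gave 26792 union regions, of which those were kept in which at least 2 of the 3 GFP-positive lists and none of the 3 GFP-negative lists held a THS. This rule kept 327 regions, or 1.22% of the union regions, with a total length of 143.1 kb. A set of 112 of them (0.418% of the union regions) stood in all 3 GFP-positive lists, and the other 215 stood in exactly 2.

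Both groups of cells came from the same inflorescence apices of plants with the genotype DRNL::erGFP ap1cal, grown on soil in long days, so controls and founder cells alike carried the reporter and both mutant genes. Protoplasts were separated by fluorescence-activated sorting, the GFP-positive ones as lateral organ founder cells and the GFP-negative ones as their non-founder neighbours, with 3 libraries each that the series calls biological replicates. The gate rests on the promoter of DORNRÖSCHEN-LIKE (DRNL) alone, apices of many plants were pooled for each sort, and the ap1 cal apex makes proliferating meristems in place of flowers. Sheared-DNA controls were sequenced too and were not analysed here. In such pools, a site open in fewer cells and a site less open in each cell cannot be told apart.

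Founder cells are the small groups of cells at the flank of a shoot meristem from which leaves, sepals and flowers arise. They form where auxin accumulates, leave the meristem state kept up by WUSCHEL, CLAVATA3 and SHOOT MERISTEMLESS, and are set off from it by boundary genes such as the CUP-SHAPED COTYLEDON family. Open chromatin marks DNA from which nucleosomes are displaced, as at promoters and enhancers in use, and in Arabidopsis most such sites lie just outside or at the edges of genes.

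Some founder-only regions lay at genes for meristem, organ and floral development and for hormones, and many at genes with no symbol. At 73 of the 327 regions, no protein-coding gene lay within 1000 bp. Listed genes with a founder-only region in the gene or within 1000 bp included AP1, AP2, SEP3, CUC2, STM, CLV3, JAG, CRC, KAN2, AIL6, PRS, LOG4 and LAX2. Over 13 lists of developmental and cell type genes, 20 of 320 matched genes (6.25%) had such a region, against 344 of all 27444 protein-coding genes (1.25%). Of the 20 genes, 7 had a region found in all 3 GFP-positive lists. The reverse rule, regions of 2 or 3 GFP-negative lists and of no GFP-positive list, kept 1246 regions (4.65% of the union regions). These neighbour-only regions touched 30 of the 320 listed genes, against 1310 of all 27444 protein-coding genes (4.77%). Listed genes thus exceeded the share of all protein-coding genes under both rules. The lists were written with earlier results of these data known, so these shares describe them and show nothing about development genes in general.

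The list of founder cell and organ initiation genes held 5 of 30 genes with a founder-only region, all in exactly 2 GFP-positive lists. At JAG (AT1G68480), a zinc finger gene that drives growth of lateral organs, a 600 bp region lay 114 bp from the gene on chromosome 1 (25683601 to 25684200, TAIR10, as for all positions here). The best THS in a region was ranked among all THSs of its library as a score percentile, with 100 the highest score. JAG reached percentile 11.1 in GFP-positive replicate 2 and 33.8 in replicate 3, and was not listed in replicate 1. JAG is also the only one of the 5 with no THS of any GFP-negative library in the gene or its 1000 bp flanks.

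At PRS (AT2G28610), a WUSCHEL-related homeobox gene of the margins of lateral organs, a 1000 bp region lay 306 bp away on chromosome 2 (12263901 to 12264900). Its percentiles were 27.4 in replicate 2 and 4.14 in replicate 3. Its nearest protein-coding gene was AT2G28620, 28 bp away, and it overlapped the lncRNA gene AT2G08270. A GFP-negative THS lay 100 bp from its edge. At AIL6 (AT5G10510), an AP2-type factor of organ initiation, the percentiles were 19.1 and 11.1 in the same libraries. At KAN2 (AT1G32240), which sets the lower side of organs, they were 18.0 and 4.37, again in replicates 2 and 3. CRC (AT1G69180), the YABBY gene of carpel and nectary, was the exception, with percentiles of 12.7 in replicate 1 and 8.57 in replicate 3. All these values lie in the lower part of each library's list.

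The 15 boundary genes held 1 with a founder-only region, CUC2 (AT5G53950), a NAC factor that keeps organs apart. Its percentiles were 3.42, 33.2 and 7.24 in replicates 1 to 3, so that it was weak in replicates 1 and 3. Among 16 meristem genes, STM and CLV3 had one, each in 2 lists. The region of STM (AT1G62360), the homeobox gene that keeps cells undifferentiated, was 600 bp long and lay wholly inside the gene on chromosome 1 (23060101 to 23060700), at percentiles 22.8 in replicate 2 and 7.71 in replicate 3. The region of CLV3 (AT2G27250), the peptide gene that limits the stem cell pool, was 200 bp long, 404 bp from the gene on chromosome 2 (11666201 to 11666400), at 16.4 in replicate 1 and 21.1 in replicate 2.

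Of 33 genes for floral identity and flowering time, 3 had a founder-only region. The one in AP1 (AT1G69120), the floral meristem identity gene that the mutant lacks in working form, reached percentiles of 35.0, 45.4 and 27.1 and covered its full 600 bp in all 3 GFP-positive libraries. In AP2 (AT4G36920), which acts in sepal and petal identity, the percentiles were 1.56, 20.0 and 6.37. At SEP3 (AT1G24260), a MADS-box partner of the floral organ identity factors, they were 0.946 in replicate 2 and 13.8 in replicate 3, from a 300 bp region 878 bp away on chromosome 1 (8597001 to 8597300). The AP1 region thus ranked well above the others, while those at AP2 and SEP3 sat near the bottom of a list in at least 1 library. DRNL itself and CAL, the other mutated gene, neither overlapped nor stood next to a founder-only region.

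Each of the hormone lists had 2 genes with a founder-only region. The auxin list had 2 of 34 genes (5.88%), both in all 3 GFP-positive lists. The share was 6.25% over all listed genes and 1.25% over all protein-coding genes. SAUR17 (AT4G09530), a small auxin-induced gene, had a 700 bp region 584 bp away on chromosome 4 (6030401 to 6031100) at percentiles 39.3, 39.8 and 32.1. LAX2 (AT2G21050), an auxin influx carrier, reached 2.09, 35.4 and 19.1. The cytokinin and gibberellin list had 2 of 29 genes (6.90%). LOG4 (AT3G53450), an enzyme that activates cytokinin, held the highest-ranking region of exactly 2 lists, 1100 bp inside the gene on chromosome 3 (19813501 to 19814600), with percentiles 44.5 in replicate 2 and 28.9 in replicate 3. GA2OX2 (AT1G30040), which inactivates gibberellin, reached 10.9 and 2.66 in those libraries.

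Outside the lists, genes of brassinosteroid synthesis, of which CPD and DWF4 are key enzymes, and the ethylene receptor gene ETR1 also had founder-only regions within 1000 bp. At CPD (AT5G05690) the percentiles were 12.1 in replicate 1 and 14.5 in replicate 2. At ETR1 (AT1G66340) they were 0.462 in replicate 2 and 22.6 in replicate 3. In ETR1 with its 1000 bp flanks, all 3 GFP-negative libraries but only 2 of the GFP-positive ones had a THS. DWF4 (AT3G50660) had 1 region in all 3 lists, 896 bp away, at 1.70, 8.47 and 3.86. These genes were picked out after their values were seen.

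The remaining lists gave 2 members at most. The shares were 6.90% for epidermis and cuticle, 7.41% for growth and 3.85% for photosynthesis, against 1.25% of all protein-coding genes. The epidermis and cuticle list had 2 of 29 genes: MYB66 (AT5G14750), known from root epidermis patterning, at percentiles 19.1, 26.7 and 6.38, and FDH (AT2G26250), a fatty acid elongation gene of the cuticle, at 16.3, 19.3 and 11.4. The growth list had 2 of 27, the cytochrome P450 genes CYP78A6 and CYP78A7 of organ and seed size. Photosynthesis had 1 of 26, LHCB6, a light-harvesting protein, at percentiles 0.795 and 1.65 in replicates 1 and 2. None of 18 vascular, 18 cell cycle and histone, 24 defence and wounding, and 21 seed and pollen genes had a founder-only region within 1000 bp. With a share of 1.25% over all protein-coding genes, these lists are too small to read an absence. The 24 symbols of the cell cycle list matched 18 genes. Cell cycle genes that the list did not hold, named after their values were seen, did have such regions. CYC3B (AT5G11300), an A-type cyclin, overlapped one at percentiles 8.40 and 29.4 in replicates 1 and 2. CYCA3;1 (AT5G43080), another, had one 477 bp away in the same libraries at 0.795 and 2.88, and the kinase gene CAK4 (AT1G66750) had one of all 3 lists 242 bp away at 6.02, 11.5 and 5.50.

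**Figure D1:**
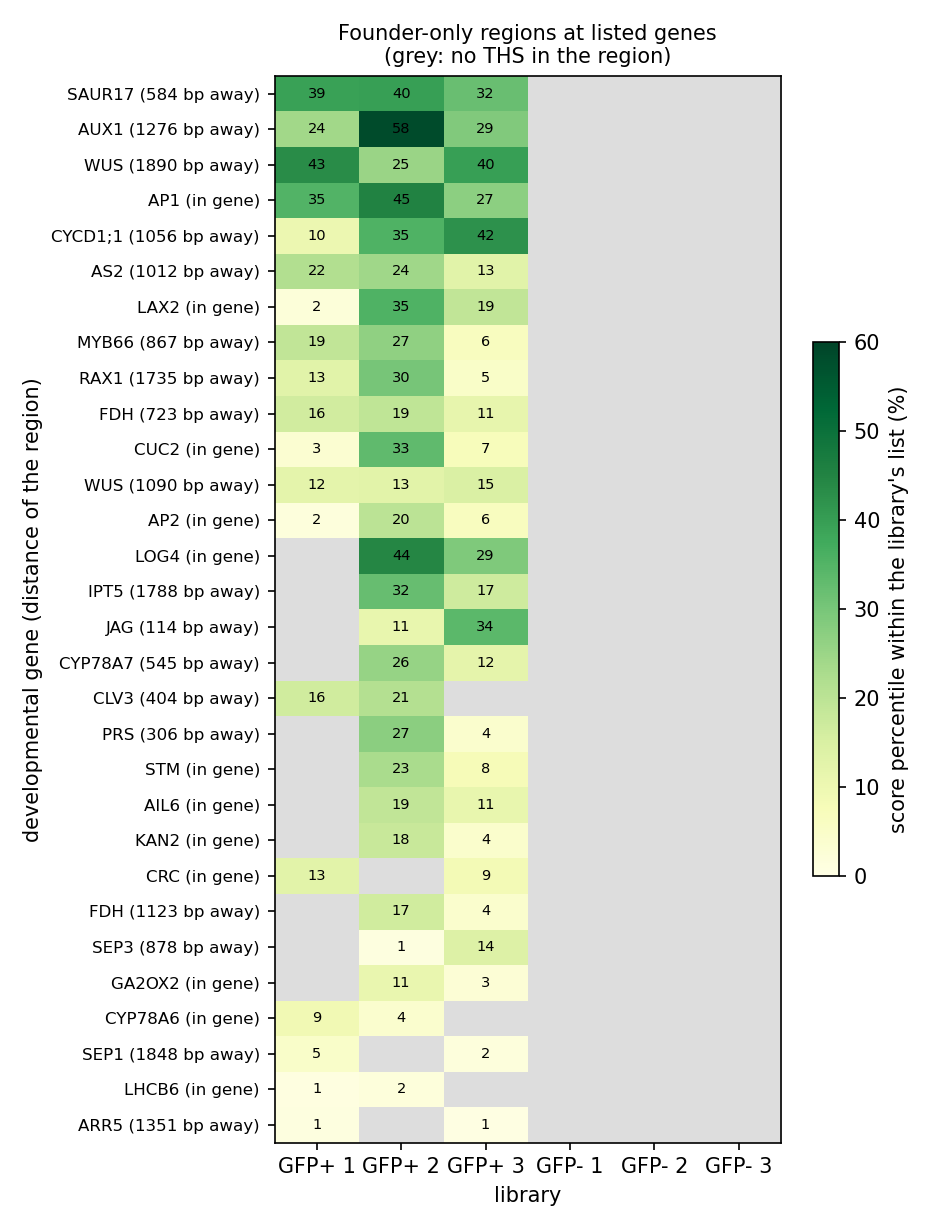
Score percentile (colour and number, in percent of each library's own list) of the best THS in founder-only regions at listed genes, 1 row per region up to 2000 bp from the gene and 1 column per library. Grey cells have no THS, and the GFP-negative columns are grey by the rule that chose the regions. The upper 13 rows are regions of all 3 GFP-positive lists, led by those near SAUR17, near AUX1, between WUS and AT2G17960 (overlapping the latter), and in AP1. At 11 of the lower 17 rows GFP-positive replicate 1 is the library without a THS.

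Most of these genes were not closed in the neighbouring cells. At 16 of the 20 listed genes, the gene with its 1000 bp flanks held a THS in all 3 GFP-negative libraries, so that the founder-only region was an extra stretch at an already open gene. At CLV3, 1 of these 16, only 2 of the GFP-positive libraries had a THS in that window. At CRC, 2 of the GFP-negative libraries had a THS there. At SAUR17, MYB66 and JAG none did. Over all 344 genes with a founder-only region within 1000 bp, 234 (68.0%) had a THS in all 3 GFP-negative libraries and 74 (21.5%) in none, against 74.4% and 19.2% of all protein-coding genes.

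Looking farther than 1000 bp brought in regions that no list gene had claimed. This search for the protein-coding genes on either side of each region was added after the first values were seen. It gave 802 genes (2.92% of all protein-coding genes), of which 43 were listed genes and 23 of these lay only beyond 1000 bp. For WUS (AT2G17950), the homeobox gene of the organizing centre, 2 regions of all 3 lists lay 1090 and 1890 bp from the gene on chromosome 2 (7811901 to 7812200 and 7812701 to 7813300). The farther one, with percentiles 43.2, 25.1 and 39.7, spanned the edge of AT2G17960 on its other side. The nearer one, with 12.3, 12.7 and 14.6, lay 180 bp from AT2G17960. AT2G17960 is thus the nearest gene of both, and neither can be assigned to WUS.

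AUX1 (AT2G38120), the founding auxin influx carrier, was the nearest gene of a 900 bp region 1276 bp away on chromosome 2 (15970701 to 15971600). Its percentile of 58.4 in replicate 2 was the highest of any founder-only region in that library, beside 24.1 and 28.7 in replicates 1 and 3. CYCD1;1 (AT1G70210), a D-type cyclin, had 2 regions of all 3 lists, 1056 and 3256 bp away. The nearer one reached 10.2, 35.4 and 42.2. AS2 (AT1G65620), a LOB-domain gene of organ polarity, had a region 1012 bp away at 21.6, 24.1 and 13.0, just outside the distance used for the lists. IPT5 (AT5G19040), a cytokinin synthesis gene, was the nearest gene, at 1788 bp, of a region found in replicates 2 and 3 at 32.1 and 16.8. Both regions thus differed widely between libraries, the one by AUX1 standing out in replicate 2 and the one by CYCD1;1 being low in replicate 1.

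The 10 regions of all 3 lists with the highest mean percentile had varied nearest genes. First was a 500 bp region on chromosome 1 (18439301 to 18439800), 145 bp from NHD2 (AT1G49810), a sodium-proton antiporter gene, at percentiles 39.6, 49.3 and 45.5. NHD2 had a further region, 464 bp away on the other side, in replicates 1 and 2. The nearest protein-coding genes of the others were AT5G44050, TRFL10, NGA1, AT4G12870, AT1G67330, NGA2, NAP1;3, SAUR17 and AUX1. AT1G67330 was 3927 bp away, and its region overlapped the lncRNA gene AT1G08927. The region by TRFL10, a telomere repeat binding-like gene 445 bp away, also had LMI1, a homeodomain-leucine zipper gene of meristem identity, on its other side at 2482 bp. NAP1;3 encodes a histone chaperone. The mean percentile of these 10 over the 3 libraries ran from 37.1 to 44.8. In single lists, 6 founder-only regions of replicate 2 and 1 of replicate 3 stood above percentile 50, and none of replicate 1.

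2 families stood out to the eye among the 344 genes, and were counted after that. NGATHA genes encode B3-domain factors that act together in the style and in the outline of lateral organs, and 3 of the 4 had a founder-only region within 1000 bp. NGA1 (AT2G46870) had an 800 bp region 68 bp away on chromosome 2 (19262601 to 19263400), at percentiles 33.1, 42.1 and 50.1. NGA2 (AT3G61970) had one of 800 bp, 736 bp away on chromosome 3 (22954001 to 22954800), at 32.8, 48.1 and 31.0. NGA3 (AT1G01030) had one of 400 bp in replicates 2 and 3, 249 bp away on chromosome 1 (11001 to 11400), at 12.7 and 18.6, and a further one 2087 bp away on its other side. NGA1 and NGA2 thus rank among the highest founder-only regions.

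SHI-related genes encode RING-like zinc finger factors of style and stamen development that act on auxin synthesis, and 3 of 11 had a founder-only region, each in exactly 2 lists. STY2 (AT4G36260) reached percentiles of 18.3 and 15.6 in replicates 1 and 2, from a region 56 bp away. SHI (AT5G66350) reached 14.1 and 8.45 in replicates 2 and 3, from a region that overlapped the gene. SRS4 (AT2G18120) had 2 regions of 200 bp, 1 of them touching the gene. No NGATHA and no SHI-related gene had a neighbour-only region within 1000 bp. Only 4.77% of all protein-coding genes had one, so groups of 4 and 11 genes are too small to read this. As groups chosen for their hits, they carry no test. Of the other families counted, CYP78A had 2 of 6 genes and trehalose-6-phosphate phosphatases 2 of 10, with no neighbour-only region. Of all protein-coding genes, 1.25% had a founder-only and 4.77% a neighbour-only region within 1000 bp, so the 2 counts of a family are not directly comparable. WRKY genes, a large family of defence and stress factors, had 4 of 71 with a founder-only and 5 with a neighbour-only region. These counts were 3 and 15 for 125 MYB genes and 2 and 14 for 80 SAUR genes. They were 2 and 3 for 44 CRK genes and 4 and 4 for 127 ABC transporter genes.

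Among the 155 genes with a descriptive name in the table, words for transcription factors matched 20 (12.9%), against 7.08% of all genes with such names. They included MYB9, MYB13, WRKY14, WRKY65, WRKY69, RAV2 and AGL102 beside the listed AP1, STM and CUC2. Matching by words is coarse: it also took NDB3, whose symbol is that of a mitochondrial dehydrogenase. Words for transporters matched 4.52% against 4.09%, and words for receptors or protein kinases, which also took MTK, matched 4.52% against 4.89%. Of 4 microRNA genes within 1000 bp of a founder-only region, MIR160b, whose product targets auxin response factors, and MIR169c, whose product targets NF-YA factors, had regions in all 3 lists. MIR160b reached percentiles of 35.6, 31.2 and 22.5 and MIR169c 17.7, 39.9 and 14.5. MIR157a and MIR397a had regions in 2 lists.

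The GFP-positive libraries did not contribute alike. Replicate 1 held a THS in 191 of the 327 regions, replicate 2 in 311 and replicate 3 in 264. Replicate 1 also had the shortest list, with 24156 THSs, against 26216 and 25623 in replicates 2 and 3, and 26001 to 28757 in the GFP-negative libraries. Of the regions in exactly 2 lists, 136 were missing from replicate 1 alone, 63 from replicate 3 alone and 16 from replicate 2 alone. The part of list length or depth in these differences was not tested, and the depth of each library is unknown.

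**Figure D2:**
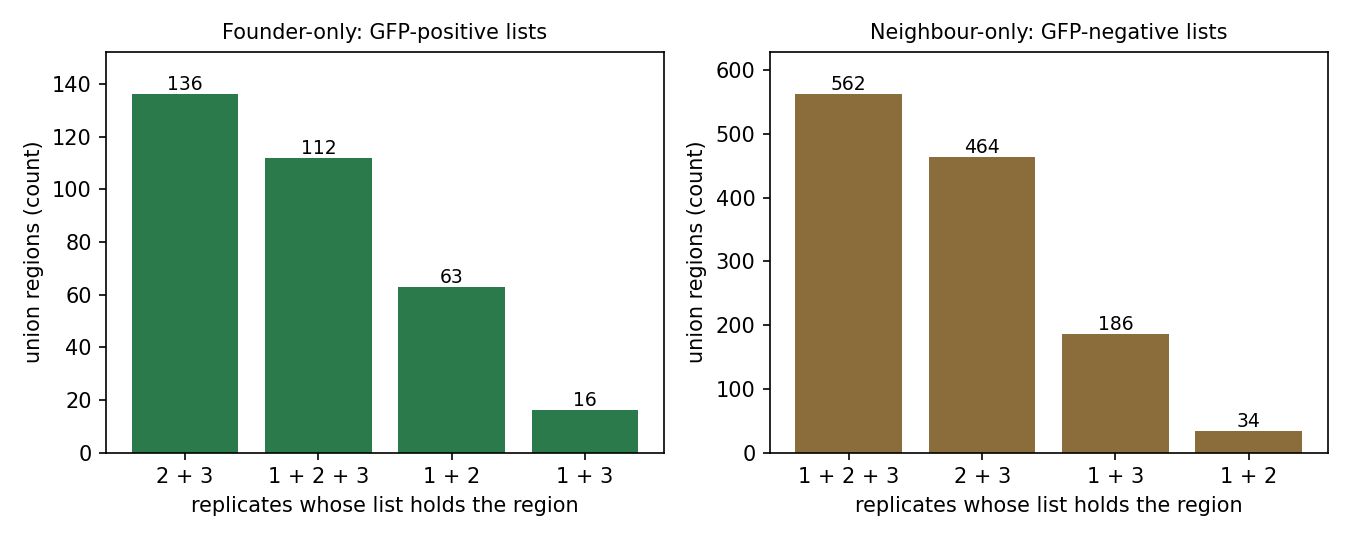
Number of founder-only regions (left) and neighbour-only regions (right) by the replicates whose lists hold them; bars are counts of union regions, on separate scales. Founder-only regions of replicates 2 and 3 (136) outnumber those of all 3 lists (112), whereas among neighbour-only regions those of all 3 lists are the most frequent (562).

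Just outside the rule, 861 regions stood in a single GFP-positive list and no GFP-negative list, and 690 stood in 2 or 3 GFP-positive lists and a single GFP-negative list. Of these 690, 293 were in all 3 GFP-positive lists. Single-list regions had a median width of 300 bp and a median mean percentile of 5.05. Those with a single GFP-negative list had 400 bp and 11.5, close to the 400 bp and 10.6 of the founder-only regions. In the GFP-negative libraries that held them, the sites that kept these regions out of the set had median percentiles of 10.7, 6.99 and 11.4.

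Founder-only regions were made of low-scoring sites. Their percentiles had a median of 9.34 in replicate 1, 13.4 in replicate 2 and 8.52 in replicate 3, with the highest at 43.2, 58.4 and 50.1. Percentiles under 25 made up 85.9%, 80.1% and 88.6% of the regions that each library held. Regions listed in all 6 libraries had medians of 58.0, 62.1 and 59.7 in the same libraries. The founder-only regions thus came mostly from the lower end of each list.

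Regions of all 3 lists scored higher than those of 2. Their medians were 13.0, 22.9 and 14.3, against 5.33, 11.1 and 6.52. Among regions of alike width, 300 to 500 bp, the medians were 11.1, 19.3 and 11.4 against 5.38, 11.1 and 6.38, and those of all 6 lists were 33.1, 39.4 and 36.5. Presence in the lists chose these regions, so the values are a description and were not tested. Neighbour-only regions had a median mean percentile of 14.2 and founder-only regions 10.6, so low scores marked the regions of both populations.

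**Figure D3:**
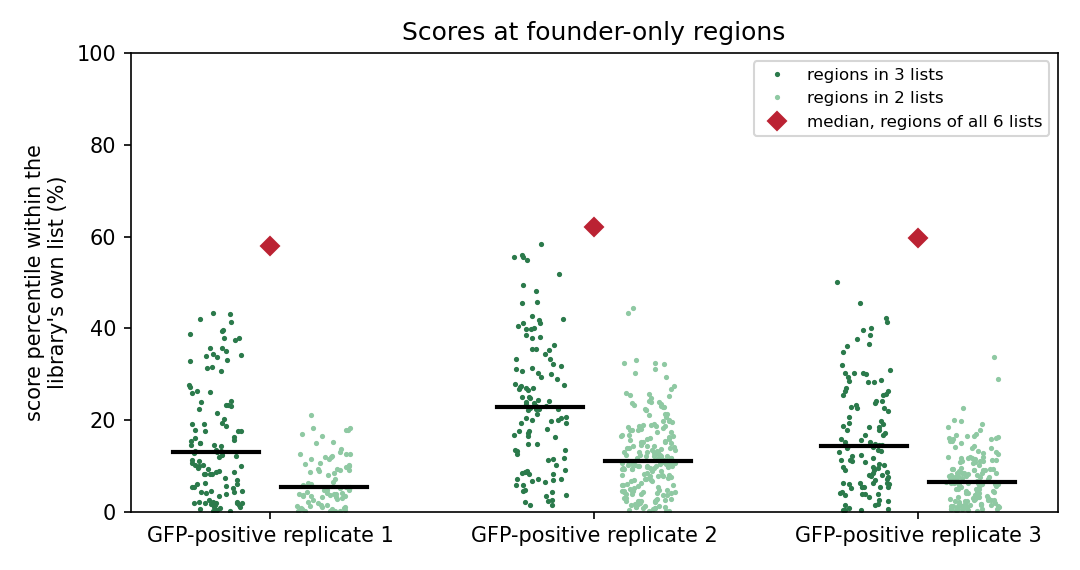
Score percentile within each GFP-positive library's own list (vertical axis, percent) for founder-only regions of 3 lists (dark points) and 2 lists (light points). Bars are medians over regions and diamonds are the medians of regions found in all 6 lists, which lie at 58.0, 62.1 and 59.7, above every founder-only region of the same library.

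The regions were narrow. Their median width was 400 bp, with a range of 100 to 1200 bp and quartiles of 300 and 500 bp. Regions of all 3 lists had a median of 500 bp and those of 2 lists 400 bp, against 600 bp for all union regions and 800 bp for regions of all 6 lists. Neighbour-only regions had the same medians, 400 bp in all, 500 bp in 3 lists and 400 bp in 2. The widest, 1200 bp, lay inside ATL15 (AT1G22500), a RING finger gene, at percentiles of 10.7, 22.1 and 0.367. Next were the region inside LOG4 and one inside AT5G44050, both of 1100 bp, and 1000 bp regions including those by CYCD1;1 and AGL102.

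Chromosomes 1 to 5 held 97, 51, 50, 44 and 85 founder-only regions, between 0.963% (chromosome 3) and 1.38% (chromosome 1) of their union regions. In 18 pairs, founder-only regions lay within 10000 bp of each other, so that 36 of the 327 had such a partner. No group was larger than a pair. At 12 regions the partner lay within 1000 bp. No count for randomly placed regions was made, so clustering was not tested. The genes with 2 regions within 1000 bp were NHD2, AT2G17960, AT5G04120, AT1G62970, SRS4 and AT3G13140. The median gap to the nearest GFP-negative THS was 600 bp. It was 100 bp at 65 regions, a single window, and at most 1000 bp at 208. To the nearest region of all 6 lists the median gap was 700 bp, and 191 regions lay within 1000 bp of one. Founder-only regions thus lay on all 5 chromosomes and mostly close to chromatin open in both populations.

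Founder-only regions overlapped genes less often than accessible regions at large. A protein-coding gene body was overlapped by 161 (49.2%), against 73.7% of all union regions. The share was 54.4% for regions of a single GFP-positive and no GFP-negative list. It was 56.5% for those of 2 or 3 GFP-positive lists and 1 GFP-negative list. Founder-only regions were also narrower than all union regions, with a median of 400 bp against 600 bp, and the part of width in this was not tested. Of the 161, 62 lay wholly inside a gene and 99 crossed a gene edge. A further 93 (28.4%) lay outside genes but within 1000 bp, 15 lay only by a gene of another type, and 58 were farther from any gene. In all, 254 (77.7%) lay in or within 1000 bp of a protein-coding gene, against 88.9% of all union regions and 91.6% of those in all 6 lists. The share of neighbour-only regions, 77.8%, was close to that of founder-only regions. The strand and exons of genes were not used here, so upstream and downstream, introns and UTRs were not told apart.

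Regions of all 3 lists overlapped a gene body in 39.3% of cases (exact 95% interval 30.2 to 49.0) and regions of 2 lists in 54.4% (47.5 to 61.2). Neighbour-only regions did so in 51.6% and regions of all 6 lists in 80.7%. The intervals of the 3-list and 2-list regions cover counting error only, and their slight overlap is no test of the difference. Wide regions reach a gene more easily, and the 3-list regions were the wider, with a median of 500 bp against 400 bp. The part of width was not tested. The 3 regions farthest from any annotated gene had TCP12, a gene that restrains branching, GH3.5, an auxin-conjugating enzyme, and DWF4 as nearest protein-coding genes, 5170, 3879 and 3596 bp away.

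**Figure D4:**
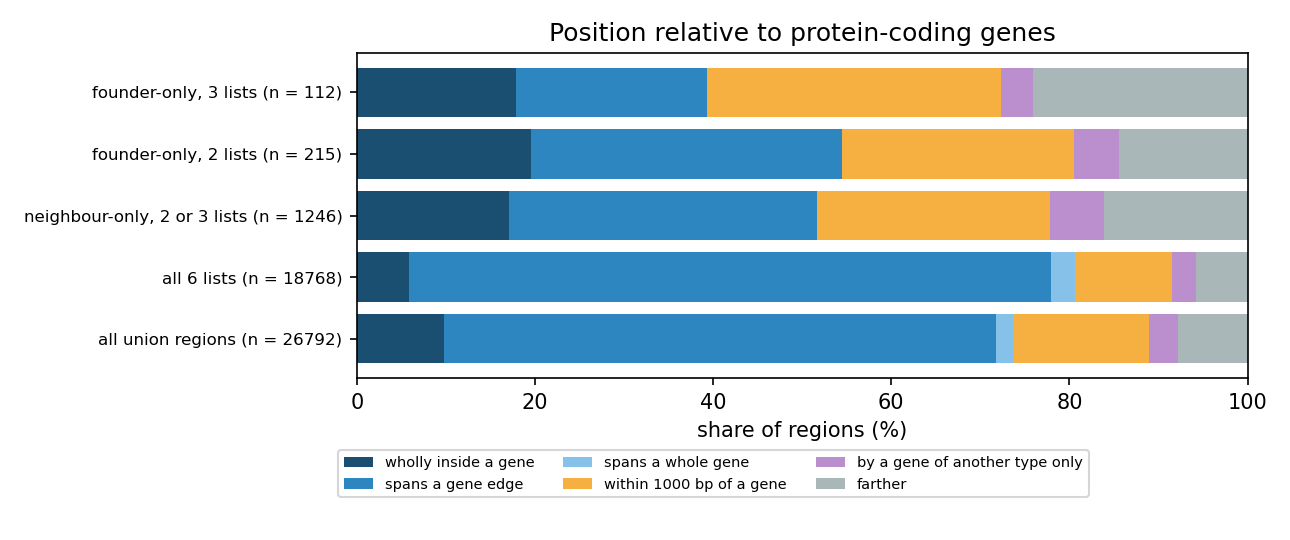
Share of regions (horizontal axis, percent) in each class of position relative to protein-coding genes, for founder-only regions of 3 and 2 lists, neighbour-only regions, regions of all 6 lists and all union regions. Founder-only regions of 3 lists overlap a gene body (the blue classes) in 39.3%, against 80.7% for regions of all 6 lists.

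The 2000 bp on each side of a founder-only region were more often open in the GFP-positive libraries. THSs covered 20.3%, 23.7% and 20.4% of these flanks in GFP-positive replicates 1 to 3 and 18.3%, 18.5% and 20.4% in the GFP-negative ones, with the region itself left out. The means were 21.5% ± 1.92 and 19.1% ± 1.13 (SD, n = 3 each), a difference of 2.42 percentage points, and GFP-positive replicate 1 did not exceed GFP-negative replicate 3. Beside the regions of all 3 lists, the libraries did not overlap: 24.6%, 28.5% and 24.1% against 20.2%, 20.7% and 22.9%, a difference of 4.46 points. Beside those of 2 lists the difference was 1.35 points and the libraries overlapped.

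Set against all union regions in the same library, flanks of founder-only regions were 5.55, 6.42 and 5.46 points above them in GFP-positive replicates 1 to 3 and 2.93, 2.53 and 3.06 points above them in the GFP-negative ones. The neighbourhoods of these regions were therefore more open than average in both populations, and more so in founder cells. Beside neighbour-only regions the order was turned round, with means of 14.0% for the GFP-positive libraries and 18.5% for the others. Every GFP-positive library exceeded every GFP-negative library in the flanks of 42 founder-only regions (12.8%), against 3.38% of all union regions. Of these 42, 24 belonged to regions of all 3 lists. The opposite order held at 3 founder-only regions (0.917%), against 6.29% of all union regions. At 61 regions all libraries had the same value, 56 of them with no THS in either flank. Flanks and regions come from the same lists and the same contrast, so these values are a description and were not tested.

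**Figure D5:**
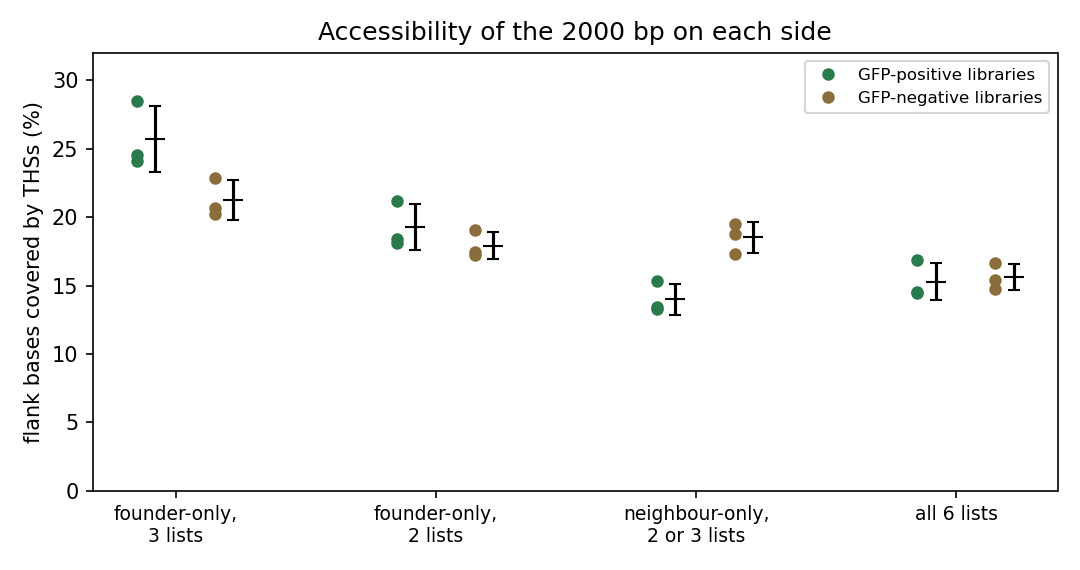
Percent of the 2000 bp on each side of a region covered by THSs (vertical axis), as the mean over regions in each library (points; 3 GFP-positive and 3 GFP-negative libraries), with the mean and SD of each group beside them. The groups lie apart for founder-only regions of 3 lists, with GFP-positive above, and for neighbour-only regions, with GFP-negative above.

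The authors' deposited table has a column of genes with differential sites higher in founder cells, called dTHS-up, made from the same libraries. Of the 113 protein-coding genes in that column of the authors' deposited table, 15 (13.3%) had a founder-only region within 1000 bp, which is 4.36% of the 344 genes, against 0.412% of all protein-coding genes. All but 3 of the 15, STY2, KAN2 and GA2OX2, had a region of all 3 lists. The others in the authors' deposited table were NHD2 and its neighbour AT1G49800, AT5G44050, NGA1, NAP1;3, SAUR17, CYP87A2, LINC2 and its neighbour AT1G13230, the pair AT2G22520 and AT2G22530, and SINAT2. LINC2 encodes a protein of the nuclear lamina in plants and SINAT2 a ubiquitin ligase. In the column of differential sites lower in founder cells, the authors' deposited table held 2 of the 344 genes (0.581%), against 1.37% of all protein-coding genes, and its dTHS-up column held none of the genes at neighbour-only regions.

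Which regions counted as founder-only depended on the lists and sites used. With the lowest-scoring 25% of every list left out, 318 regions met the rule, but only 33 of the 327 (10.1%) were still among them. With the same number of top-scoring sites in every list, 769 regions met it, 208 of the 327 among them. The reverse rule then kept 837 regions, against 1246 with the full lists. Joining sites up to 200 bp apart left 198 regions. Without GFP-negative replicate 3, the longest list, the count rose to 872 and that of neighbour-only regions fell to 619. This was the only alternative with fewer neighbour-only than founder-only regions. Without GFP-positive replicate 2 or 3 the founder-only count fell to 143 or 183. The part of list length in these counts was not tested. Among regions at or near listed genes, those in AP1 and LOG4, the one by SAUR17 and the farther one by WUS met the rule under all 4 alternatives that changed sites or the presence rule. In all, 19 of the 327 did so. Leaving out a library is no check of a region of all 3 lists, since at least 2 GFP-positive lists still hold it. The region in LOG4, held by replicates 2 and 3, was lost without either of these libraries. The regions at PRS and in CYP78A6, and the second one by FDH, met the rule under none of these 4.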

How the data were processed

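Site lists of the 6 sorted libraries were used, grouped by the labels' titles. The genome build was TAIR10 and the tools were SICER, bedtools 2.17.0, Picard 1.105, BWA 0.7 and SAMtools 0.1.19, per the submitters' processing notes. The sources used here do not give their roles, the SICER version, read shifts, filters, thresholds or the depth per library. Each deposited list gives a score per THS, the authors' own value on an unstated scale, used here only as a rank within its list. The deposited series table holds gene identifiers (unit: other) and no numbers.

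Starts were multiples of 100 and ends included, so each site was taken as a run of 100 bp windows, and touching sites were joined. Positions count from 1. Names and distances of 27444 protein-coding genes were taken from RefSeq's gene table (TAIR10.1), which gives no strand or exons. Of 328 listed symbols, 7 had no match, and RPL and BLR are names of the same gene, which left 320 genes. Promoter sequences were not used here, so the planned motif counts were not run and no sequence is printed. Intervals are exact Clopper-Pearson. The planned exact permutation test of flank coverage is not reported, because flanks share lists and contrast with the rule. Code in Python 3.11.15 with numpy 2.4.6, pandas 2.3.3 and scipy 1.17.1 was tested on simulated lists.

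The members and gene lists were chosen with earlier results of these data known. Genes were named by rule: listed genes, the nearest genes of the 10 and 5 highest-scoring regions of 3 and 2 lists, the 5 widest regions, genes with more than 1 region, genes of the dTHS-up column, and the 3 regions farthest from any gene. Chosen after values were seen were the loci of 15 ambiguous symbols, the word classes, the families, the next-gene search and the alternatives for scores, listed genes and the authors' table.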

Additional observations from a re-analysis of the deposited data

How the results depend on the processing

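With the same number of top-scoring sites in every list, 769 regions met the rule, 305 in 3 lists and 464 in 2. A gene body was overlapped by 57.7%, the median score percentile was 13.6, 92 regions had flanks that separated the groups, 33 listed genes were hit and the authors' deposited table shared 27 dTHS-up genes. With the lowest-scoring 25% left out, the median width was 600 bp, 57.2% overlapped a gene body, the percentile was 33.3 and 28 dTHS-up genes of the authors' deposited table were shared. With sites up to 200 bp apart joined, 198 regions were left (63 and 135), 58.1% overlapped a gene body, 14 had separating flanks and 11 listed genes were hit. Where a list had to cover 50% of a region to count, 173 regions stood in 3 lists, the width was 500 bp, 56.2% overlapped a gene body, the percentile was 14.7, 68 had separating flanks and 32 dTHS-up genes of the authors' deposited table were shared. Within 500 bp of a gene lay 66.1% of the regions, and within 2000 bp 89.0%. The cause of these shifts was not tested.

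Leaving out 1 library at a time gave 143 (without GFP-positive replicate 2) to 872 regions (without GFP-negative replicate 3), with 135 to 354 in all GFP-positive lists left and 263 to 518 in exactly 2. Gene bodies were overlapped by 38.5% to 54.7%, 72.1% to 81.4% lay within 1000 bp of a gene, the median width was 400 bp throughout and the percentile ran from 10.7 to 14.4. Flanks separated the groups at 32 to 149 regions, 10 to 42 listed genes were hit, and 13 to 30 dTHS-up genes of the authors' deposited table were shared. The higher ends of these counts came without GFP-negative replicate 3 and the lower ends mostly without GFP-positive replicate 2 or 3. The flank difference ran from 1.07 to 4.46 points over the 15 alternatives. All of them reuse the lists and the contrast that chose the regions, so its constant sign is no independent check. Pairing by replicate number (replicate block) cannot change a mean difference, which stays at 2.42 points. The labels do not say that numbers mark shared sorts, and deviations of same-numbered libraries from their group means, in coverage of all union regions, correlated at 0.119, 0.0452 and 0.0442, with GFP-positive replicate 2 closer to GFP-negative replicate 3 (0.0498). The alternatives for scores, listed genes and the authors' table were chosen after seeing the data. Depth limits every absence stated: a region missing from a list may be open below the calling threshold.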
